A study of Arabidopsis thaliana with 16 samples.

Results

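The 10 genes described here are the pseudo-response regulators APRR1 (AT5G61380, also known as TOC1), APRR3 (AT5G60100), APRR5 (AT5G24470), APRR7 (AT5G02810) and APRR9 (AT2G46790), together with GI (AT1G22770), ELF3 (AT2G25930), ELF4 (AT2G40080), LUX (AT3G46640) and LNK1 (AT5G64170). They were taken by locus identifier from a table of 33602 genes, and all 10 passed the filter on low values that left 20756 genes for testing. The plant circadian clock is a loop of repressors and activators that follow one another through the day. Morning-expressed MYB factors such as LHY hold back the evening genes, the pseudo-response regulators (PRR proteins) repress the morning genes in successive waves from day into evening, and the evening complex of ELF3, ELF4 and LUX represses PRR genes and growth regulators at night. GI acts in the evening on protein stability and flowering time, and LNK1 joins morning MYB activators to drive APRR5 and other evening genes.

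RNA was measured by sequencing poly-A RNA of whole Arabidopsis thaliana seedlings at 7 dpg (days after germination), in 16 libraries of 4 groups with 4 libraries each. Wild type was compared with a homozygous line that carries ATML1pro:GR-SPCH1-4A-YFP, called the inducible line below. Its ATML1 promoter, active in the epidermis, drives the stomatal lineage factor SPEECHLESS (SPCH) fused to a glucocorticoid receptor domain that moves to the nucleus when dexamethasone is added. Seeds of both lines had 2 days of cold and then grew in liquid MS medium containing 1% sucrose, shaken at 90 rpm. Both lines were collected untreated (0 h) and 12 h after 100 μM dexamethasone, with no untreated group at 12 h among the 4, so within a line dexamethasone and elapsed time cannot be told apart. The labels give neither the time of day nor the light regime, which matter for clock genes. Replicates 1 and 2 of each group shared one sequencing lane (lane 1) and replicates 3 and 4 another (lane 2). The labels do not say that libraries came from separate cultures, so p-values measure the spread between libraries, which can be technical.

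Libraries held 16251477 to 22944391 reads assigned to genes, and the members had between 22 and 1343 reads per library, the fewest for APRR9. SPCH transcript, which counts the transgene too, was higher in the inducible line at both times, with 140 ± 16.2 normalized counts (SD, n = 4) against 63.4 ± 6.26 for wild type at 0 h, and 200 ± 31.6 against 65.7 ± 5.73 at 12 h. Markers of green tissue and root were present in every library. Of the shoot meristem genes, STM had 33.5 to 108 normalized counts per library and WUS was at 0 in all 16. In such bulk samples fewer cells of a type and less RNA per cell cannot be told apart.

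The genes lie on 4 chromosomes of TAIR10.1, the RefSeq assembly whose annotation gave these positions. On chromosome 5 are APRR1 from 24674963 to 24678550 on the plus strand, and on the minus strand APRR3 from 24197971 to 24201415, APRR5 from 8356204 to 8358546, APRR7 from 637681 to 642030 and LNK1 from 25672466 to 25676823. On chromosome 2 are APRR9 from 19232607 to 19235179 and ELF3 from 11058944 to 11063324, both on the plus strand, and ELF4 from 16734294 to 16734953 on the minus strand. GI spans 8061751 to 8067790 of chromosome 1 and LUX 17183042 to 17186959 of chromosome 3, both on the plus strand. The gene models range from ELF4, a single exon coding for 111 amino acids, to GI, with 14 exons and 1173 amino acids.

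Short upstream stretches are shown because they carry the elements through which clock proteins are known to act on one another's genes. Each is read 5′ to 3′ on the gene's own strand from the TAIR10.1 sequence of RefSeq, with the element in capitals. The evening element AAAATATCT, through which morning MYB factors bind evening genes, lies upstream of APRR1, APRR5 and LUX. In the first and second stretches it reads on the other strand as AGATATTTT, and APRR5 also holds the CCA1 binding site AAAAATCT, there as AGATTTTT, 3 bases before it. The RefSeq model of APRR5 is coding sequence only, so its stretch was kept short and its distances count from the start codon.
APRR1, chr5:24674792-24674840, plus strand: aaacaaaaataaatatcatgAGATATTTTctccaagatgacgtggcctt
APRR5, chr5:8358720-8358749, minus strand: tcgctAGATTTTTtctAGATATTTTctttt
LUX, chr3:17182969-17183017, plus strand: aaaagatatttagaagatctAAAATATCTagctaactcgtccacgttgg

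The next stretches show a G-box (CACGTG) before APRR7, an element bound by PIF growth factors, and matches to the short site of LUX (GATACG or GATTCG) before the other members of its complex. The match of ELF3 is on the other strand, as CGTATC.
APRR7, chr5:642206-642251, minus strand: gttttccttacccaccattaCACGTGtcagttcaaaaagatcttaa
ELF3, chr2:11058841-11058886, plus strand: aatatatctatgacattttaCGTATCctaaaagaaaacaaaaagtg
ELF4, chr2:16735020-16735065, minus strand: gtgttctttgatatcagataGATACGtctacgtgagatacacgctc

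Within 500 bases before the annotated start, searched on both strands, 3 of the 10 members held an evening element, against 4.44% of 27443 protein-coding genes. The evening element of LUX began 53 bases before its start and that of APRR1 151 bases. A second evening element of APRR5 began 292 bases before its start codon. The CCA1 binding site was found in 2 members (12.5% of all genes), the LUX site in 6 (22.6%) and the G-box in 3 (9.35%). Windows were not cut where they ran into neighbouring genes. That of LNK1, whose LUX sites begin 423 and 415 bases before its start, shares 252 bases with AT5G64180. The windows of APRR7 and LUX share 82 and 19 bases with other genes. APRR3 and GI held none of the 4 motifs in these windows. No matches overlapped one another. A match is a description of letters, not of a bound site.

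Per kb of exon, ELF4 had the highest normalized count of the 10 in every group, at 961 ± 251 in wild type and 597 ± 77.8 in the inducible line at 0 h. APRR1 came next, between 342 ± 48.2 and 403 ± 25.6. APRR9 was the lowest in all groups, from 17.8 ± 6.65 to 35.1 ± 8.02, a member of the PRR family known to peak early in the day. Between these, APRR7, ELF3 and LNK1 lay within one another's spread at 0 h in both lines. APRR3, APRR5, GI and LUX had lower means at 0 h in both lines, though without a gap in wild type. There LUX reached 201 at 0 h in its highest library, while ELF3 began at 159. At 12 h in the inducible line GI had 219 ± 22, against 228 ± 4.35 for LNK1. The length of APRR5 leaves out untranslated exons, so its level is overstated if reads there were counted. The rank of LUX rests on the gene model, since its annotated exons cover 3916 bases while its shortest transcript has 1384. On the shortest transcript LUX had a mean of 453 per kb in wild type at 0 h, against 385 ± 16.1 for APRR1.

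**Figure D1:**
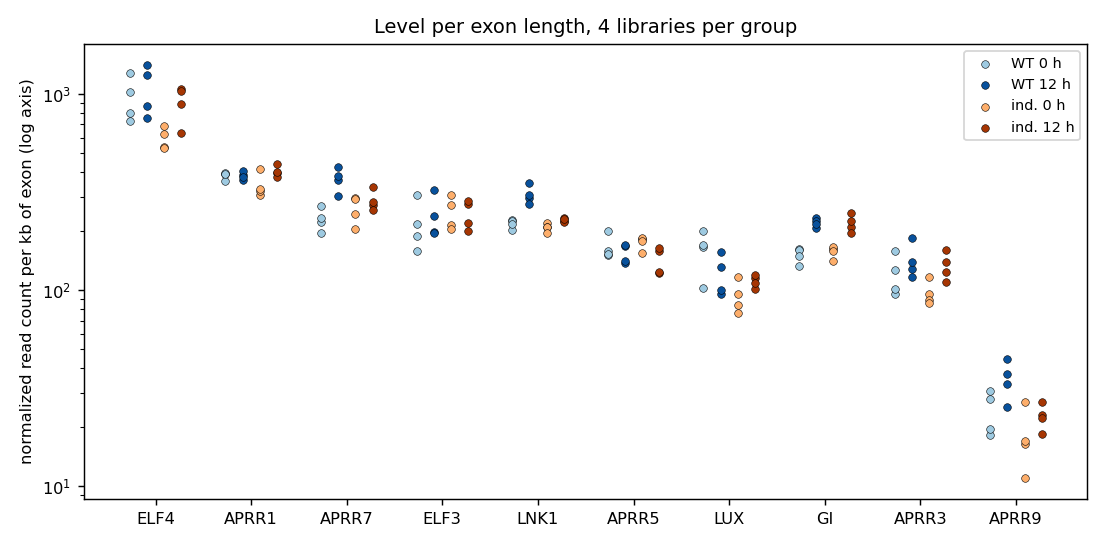
Normalized read count per kb of annotated exon on a log axis, 1 point per library, 4 libraries in each of the 4 groups. ELF4 lies highest and APRR9 lowest in all groups, and APRR1 spans 308 to 439 per kb over the libraries of the inducible line.

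Wild type at 12 h against 0 h shows what moved without the transgene. APRR7, GI and LNK1 rose, by 1.6-fold, 1.47-fold and 1.41-fold, and the other 7 members did not pass the test. The background for rises was 2.27% of the 20756 genes, and for falls, of which the members had none, 2.45%. For the same 3 genes every 12 h library lay above every 0 h library, in a comparison where 9.23% of all genes had libraries that do not overlap. Differences are on the log2(normalized count + 1) scale, and an adjusted p is from limma over all genes tested unless another fit is named. The 3 rises were called in each of the 16 fits that left out 1 library.

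APRR7, a daytime repressor of the morning gene LHY, had 716, 630, 756 and 872 normalized counts in the wild-type libraries at 0 h and 1182, 1373, 1235 and 982 at 12 h. The lowest library at 12 h, replicate 4, was above the highest at 0 h, also replicate 4. The log2 difference was 0.68 (SE 0.14, adjusted p = 0.0109). The inducible line had 950, 944, 787 and 665 at 0 h and 883, 1082, 830 and 908 at 12 h. These overlapped, with a log2 difference of 0.15 (adjusted p = 0.717). The difference of these changes, the line-by-time interaction, was -0.53 (95% interval -0.95 to -0.10, adjusted p = 0.302), so the lines were not shown to differ in the change of APRR7.

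GI, a large plant-specific protein that stabilises the evening F-box protein ZTL and promotes flowering, had 568, 694, 686 and 644 normalized counts in wild type at 0 h and 1005, 971, 898 and 939 at 12 h. The counts of the inducible line were 604, 701, 717 and 681 at 0 h and 904, 841, 1062 and 968 at 12 h. No 12 h library of either line reached down to a 0 h library. The rise was 0.56 in wild type (SE 0.10, adjusted p = 0.00479) and 0.48 in the inducible line (SE 0.10, adjusted p = 0.00841). GI was the member called in both lines, and its interaction was -0.08 (95% interval -0.38 to 0.23, adjusted p = 0.889). Between the lines it differed by -0.02 at 12 h (95% interval -0.23 to 0.20) and 0.06 at 0 h (-0.15 to 0.28). Its exact permutation p was 0.0286 in both lines, 2-sided, the smallest that 4 against 4 libraries allow, and 0.163 once adjusted over the 40 such tests of members, as for every other member whose libraries did not overlap.

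LNK1, a coactivator without a DNA-binding domain of its own, had 540, 605, 602 and 577 normalized counts in wild type at 0 h and 790, 818, 939 and 738 at 12 h. The inducible line had 588, 561, 560 and 524 at 0 h and 620, 598, 597 and 613 at 12 h. The 12 h values of wild type stood apart from the other 3 groups, whose libraries span 524 to 620. The rise in wild type was 0.49 (SE 0.09, adjusted p = 0.00554), with 0.0819 when the fit held the compared groups alone. Libraries of the inducible line did not overlap over time either, but their difference of 0.12 did not pass (SE 0.09, adjusted p = 0.636). Its interaction was -0.37 (95% interval -0.65 to -0.10, adjusted p = 0.258). The annotated LNK1 overlaps AT5G64160 on the opposite strand by 245 bases, a gene with a mean of 208.8 normalized counts. No source used here gives the strand setting of the counting.

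**Figure D2:**
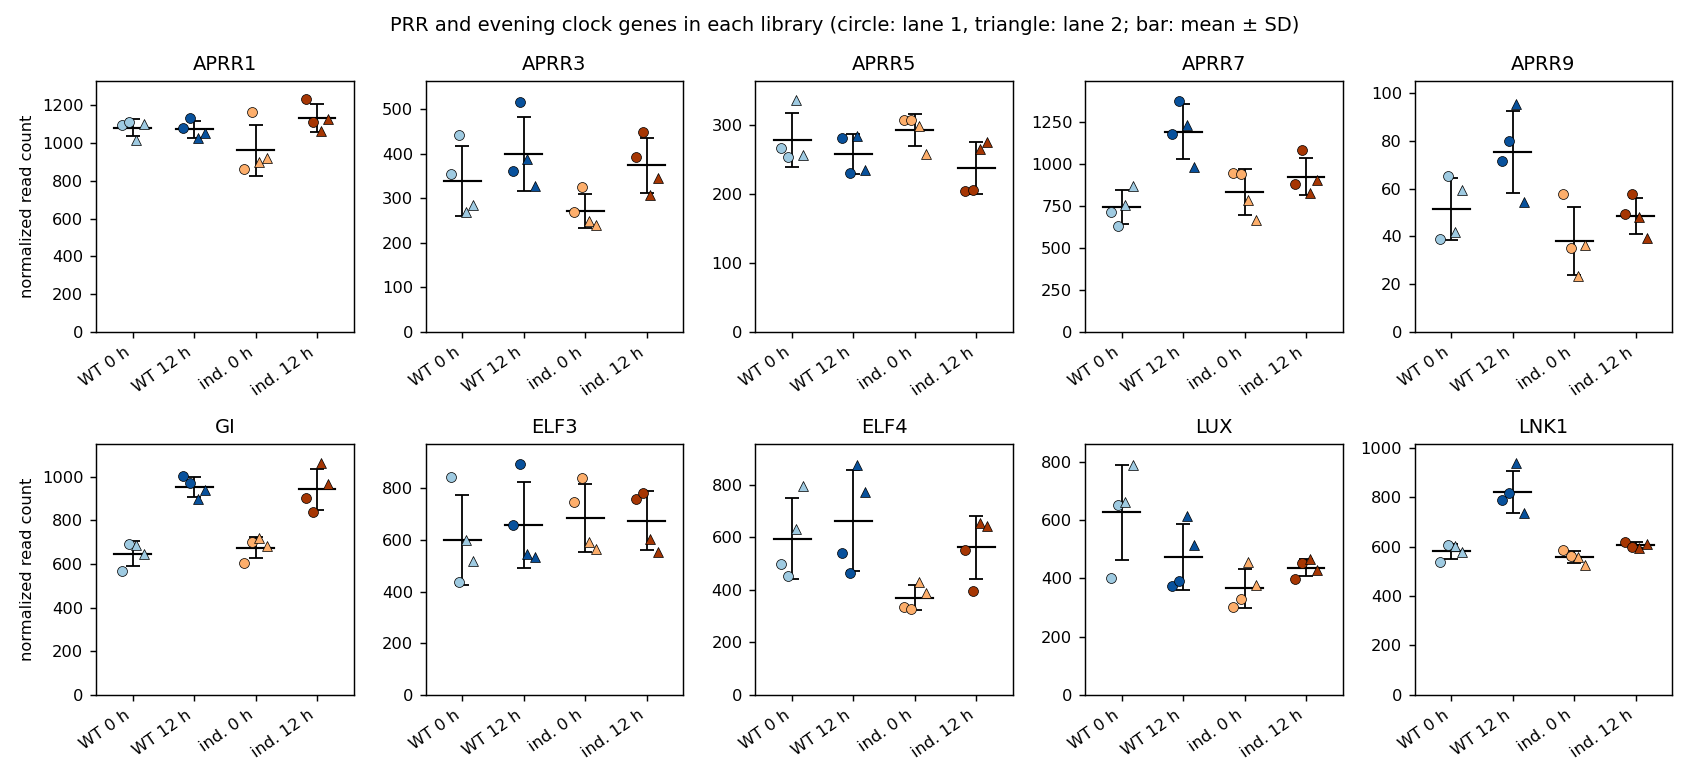
Normalized read counts of the 10 genes in every library, with circles for lane 1, triangles for lane 2 and bars for mean ± SD of 4 libraries. GI is higher at 12 h in both lines, LNK1 is higher in wild type at 12 h than in the other 3 groups, and LUX spreads widely in wild type.

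Fits of a single lane hold 2 libraries per group. Their direction was fixed for these rises, because the libraries did not overlap, so only the sizes are informative. In wild type the log2 difference of APRR7 was 0.92 in lane 1 and 0.44 in lane 2, with adjusted p of 0.0193 and 0.111. That of GI was 0.65 and 0.46 (adjusted p = 0.0778 and 0.0504), and that of LNK1 0.49 and 0.50 (0.137 and 0.0633). For GI the inducible line gave 0.42 and 0.54 (0.262 and 0.0344). APRR7 was the member whose rise differed by over 1.5 times between the lanes.

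From 0 to 12 h in the inducible line, GI was the member called by the fit without a block, where 1.44% of all genes rose and 3.68% fell. Of the 10 members 8 had a positive difference, as did 10706 of the 20756 genes tested. The median was 0.26 for the members against 0.01 over all genes tested. GI and LNK1 had libraries that did not overlap, as did 13% of all genes. With the replicate number as a block, which removes what same-numbered libraries of the groups share, APRR3 and ELF4 rose too. That fit called 3 members higher, against a background of 3.06% of all genes. Of the 5 stomatal lineage markers, the receptor-like protein gene TMM rose by 2.24 (adjusted p = 2.09e-08) in the same comparison. The peptide gene EPF2 rose by 3.04 (adjusted p = 2.42e-06). SPCH (0.51, adjusted p = 0.0639), FAMA (0.28, adjusted p = 0.344) and MUTE (-0.17, adjusted p = 0.894) did not pass. The 5 markers summed to 698 to 848 at 0 h and 2094 to 2806 at 12 h, while the mean of TMM went from 286 to 1351. Of the root markers PYK10 fell (-0.70, adjusted p = 0.0337) and the other 4 did not pass. Their part in the changes of GI, APRR3 and ELF4 was not tested.

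APRR3, a PRR protein that binds and steadies APRR1, had 268, 326, 250 and 240 normalized counts in the inducible line at 0 h and 392, 449, 307 and 346 at 12 h. Each replicate was higher at 12 h than the same-numbered library at 0 h, though replicate 3 at 12 h lay below replicate 2 at 0 h. The log2 difference was 0.46 (SE 0.18, adjusted p = 0.184), with an SE of 0.10 and adjusted p = 0.00921 under the block. In wild type the counts were 354, 442, 269 and 286 at 0 h and 361, 516, 389 and 328 at 12 h, a difference of 0.24 (adjusted p = 0.479, and 0.131 with the block). Its interaction was 0.21 (95% interval -0.31 to 0.74, adjusted p = 0.808).

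The other PRR genes had no call in any comparison. APRR1, the evening repressor at the core of the clock, had 864, 1161, 900 and 921 normalized counts in the inducible line at 0 h and 1232, 1110, 1061 and 1126 at 12 h, a log2 difference of 0.24 (adjusted p = 0.224). In wild type it was the steadiest of the 10 over time, with means of 1080 ± 45.2 and 1073 ± 45.3 (SD, n = 4) and a difference of -0.01 (95% interval -0.22 to 0.20). APRR5, an afternoon repressor, ran the other way, from 293 ± 23.4 to 238 ± 37.8 in the inducible line (-0.31, adjusted p = 0.275) and from 279 ± 39 to 258 ± 28.6 in wild type (-0.11, adjusted p = 0.727). Its libraries overlapped in both lines. APRR9, a morning repressor, had 39, 65, 42 and 59 in wild type at 0 h and 71, 80, 95 and 54 at 12 h, and its difference of 0.55 did not pass (SE 0.26, adjusted p = 0.25). The inducible line went from 38.2 ± 14.2 to 48.6 ± 7.58 (0.40, adjusted p = 0.544). At 12 h APRR9 had the largest difference between the lines of any member, -0.60, without passing (95% interval -1.15 to -0.05, adjusted p = 0.295).

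**Figure D3:**
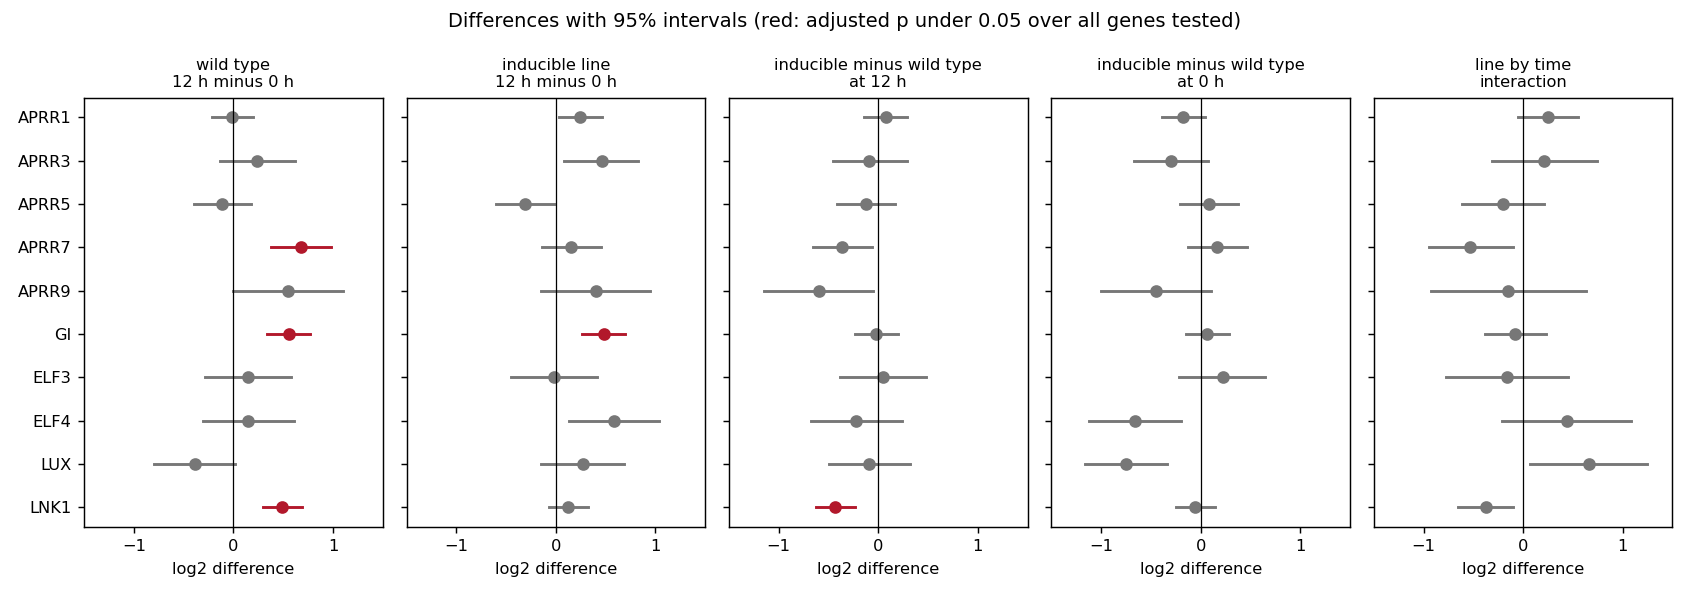
Log2 differences of the 10 genes with 95% intervals in the 4 pairwise comparisons and the line-by-time interaction, in red where the adjusted p over all genes tested was under 0.05. The red points are APRR7, GI and LNK1 in wild type over time, GI in the inducible line over time, and LNK1 between the lines at 12 h.

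Between the lines at 12 h, LNK1 was the member called, and it was lower in the inducible line (log2 difference -0.43, SE 0.09, adjusted p = 0.0137). Falls made up 2.2% of all genes in this comparison. Every inducible-line library, at 597 to 620, was below every wild-type library, at 738 to 939, and no other member was free of overlap here, against 9.65% of all genes. Without wild-type 12 h replicate 3, the highest library, the difference was -0.36 and the adjusted p 0.0535. Lane 1 alone gave -0.40 (adjusted p = 0.286) and lane 2 alone -0.46 (adjusted p = 0.15). Of the tissue markers at 12 h, TMM (2.50, adjusted p = 1.02e-08), EPF2 (2.92, adjusted p = 1.05e-05) and SPCH (1.58, adjusted p = 1.11e-05) were higher in the inducible line. The stomatal markers MUTE (-0.28, adjusted p = 0.82) and FAMA (0.15, adjusted p = 0.789) did not pass. The 5 stomatal markers, all above 0, summed to 2094 to 2806 against 627 to 770 in wild type. Lower were 2 of the 5 root markers, PYK10 (-0.98, adjusted p = 0.00495) and BGLU21 (-0.62, adjusted p = 0.042), and 1 of the 4 green-tissue markers, LHCA3 (-0.61, adjusted p = 0.0321). The root sum was 42751 to 62103 in the inducible line and 91981 to 120064 in wild type, and PYK10 made up most of it. CASP1 (-0.68, adjusted p = 0.143), EXPA7 (-0.58, adjusted p = 0.466) and SCR (-0.05, adjusted p = 0.994) did not pass. The green-tissue sum was 200808 to 276513 and 232709 to 301896. Their part in the LNK1 difference was not tested. Among members that did not pass, APRR7 differed by -0.36 (95% interval -0.66 to -0.06, adjusted p = 0.228), and GI, APRR1 and ELF3 had differences between -0.02 and 0.08.

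The genes of the evening complex differed in how their libraries spread and in how the lines compared at 0 h. ELF4, a small protein that binds ELF3 within the complex, had 333, 327, 428 and 389 normalized counts in the inducible line at 0 h and 553, 394, 655 and 643 at 12 h. In wild type it had 497, 452, 633 and 797 at 0 h and 541, 465, 875 and 774 at 12 h. All 4 inducible-line libraries at 0 h were below all 4 of wild type, and in the inducible line the groups overlapped over time through replicate 2 at 12 h. ELF4 differed over time in the inducible line by 0.58 (SE 0.22, adjusted p = 0.161), with adjusted p = 0.00279 under the block. Lane 1 alone gave 0.50 (adjusted p = 0.282) and lane 2 alone 0.67 (adjusted p = 0.0271). In wild type the change was 0.15 (adjusted p = 0.771), and the interaction 0.44 did not pass (95% interval -0.21 to 1.08, adjusted p = 0.632).

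LUX, the DNA-binding member of the complex, had 301, 331, 456 and 376 normalized counts in the inducible line at 0 h and 398, 452, 465 and 428 at 12 h. In wild type it had 400, 654, 662 and 789 at 0 h and 374, 391, 614 and 514 at 12 h. Wild-type 0 h replicate 1 lay well below the other 3 of its group and inside the range of the inducible line. The interaction of LUX was the largest of the 10, at 0.66 (95% interval 0.07 to 1.24, adjusted p = 0.369, and 0.0704 with the block). Over time LUX differed by -0.39 in wild type (adjusted p = 0.278, and 0.0573 with the block) and by 0.27 in the inducible line (adjusted p = 0.61). Without wild-type 0 h replicate 1 that of wild type was -0.59 (adjusted p = 0.0425). LUX overlaps AT3G46650 on the opposite strand by 1507 bases, a gene with a mean of 55.5 normalized counts.

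Between the lines before treatment limma called no member, while 0.573% of all genes were called lower. At an unadjusted p under 0.05 there were 2, LUX and ELF4, against 3901 of all genes. ELF4 was the member whose libraries did not overlap, as in 8.53% of all genes. The inducible line minus wild type was -0.75 for LUX (SE 0.20, adjusted p = 0.0564), just outside the threshold, and -0.66 for ELF4 (SE 0.22, adjusted p = 0.115). With the replicate block both passed, at adjusted p = 0.00292 for LUX and 0.0028 for ELF4, in a fit that called 5.46% of all genes lower. On the recovered reads DESeq2 called both (adjusted p = 0.00763 for LUX and 0.0429 for ELF4), in a fit that called 1360 of all 20756 genes. LUX was also called by edgeR (adjusted p = 0.0497), with 411 calls over all genes, against 414 in limma. LUX had -0.70 in lane 1 and -0.80 in lane 2 (adjusted p = 0.399 and 0.0152), and ELF4 had -0.52 and -0.80 (0.447 and 0.012). Over all genes the fit of lane 1 alone called 1 and that of lane 2 alone 1846. Without wild-type 0 h replicate 1, LUX had -0.95 (adjusted p = 0.00566), in a fit that called 1803 of all genes. For APRR9 and APRR3 the differences at 0 h were -0.45 (adjusted p = 0.364) and -0.30 (adjusted p = 0.377). ELF3, the scaffold that joins ELF4 to LUX, had a difference of 0.22 (95% interval -0.22 to 0.65, adjusted p = 0.611) and did not pass in any comparison. Its counts in wild type were 845, 438, 598 and 520 at 0 h and 657, 895, 547 and 536 at 12 h. Those of the inducible line were 747, 841, 591 and 564 at 0 h and 760, 784, 602 and 554 at 12 h. All its groups overlapped. On the opposite strand ELF3 overlaps AT2G25940 by 24 bases and the antisense RNA AT2G08135, which is not among the counted genes, by 183 bases.

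The genes of the complex also moved with the lane. ELF4 was higher in lane 2 than in lane 1 in all 4 groups, by 0.31 to 0.71 on the log2 scale, as was LUX, by 0.07 to 0.55. Their groups were each split evenly over the lanes. ELF3 was lower in lane 2 in all 4 groups, by -0.12 to -0.50, and so were APRR3, APRR9 and, by -0.06 to -0.14, APRR1. Such a shared sign was not special to them: 52.3% of all genes had it, with a median size of lane difference of 0.251. GI, LNK1 and APRR1 varied little among libraries of a group, with mean SDs of 0.11, 0.08 and 0.1 on the log2 scale. The median was 0.23 over 13289 genes of similar level, and ELF4 had 0.33 and APRR9 0.36.

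**Figure D4:**
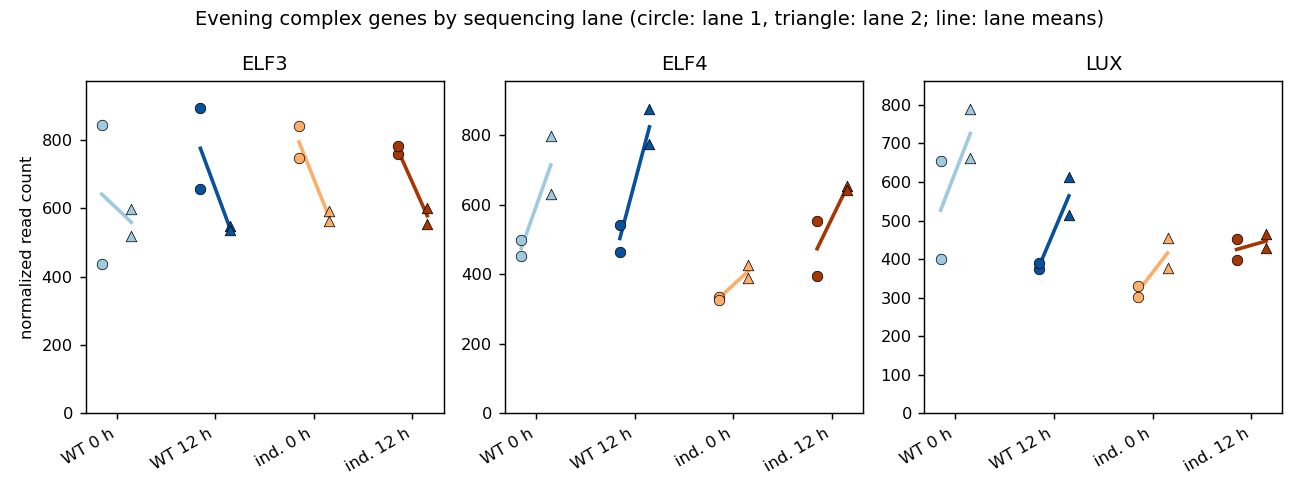
Normalized read counts of ELF3, ELF4 and LUX by sequencing lane in each group, with circles for lane 1, triangles for lane 2 and lines joining the lane means. ELF4 and LUX rise and ELF3 falls from lane 1 to lane 2 in all 4 groups.

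Across the 16 libraries, which share lanes and groups, ELF4 and LUX went together with a Pearson r of 0.69, and ELF3 and LUX went opposite, with -0.69. Taken within group and lane, ELF4 and LUX had -0.06 while ELF3 and LUX had -0.65. APRR7 and LNK1 had 0.79 over the libraries and 0.37 within group and lane. APRR9 and LNK1 had 0.77 and 0.53. These are descriptions of 16 libraries and carry no test. Among 20746 other tested genes, the most alike over the 16 libraries was BBD1 (AT1G75380) for LNK1, with r of 0.92, AT3G25290 for GI, with 0.95, AT5G24620 for APRR7, with 0.87, and ADA2B (AT4G16420) for LUX, with 0.95. For ELF4 it was HB5 (AT5G65310), with 0.94, and for ELF3 it was SR34 (AT1G02840), with 0.92. The values were 0.90 for APRR3 with PLC2 (AT3G08510) and for APRR9 with AT4G01400, 0.81 for APRR1 with AT3G26115 and 0.77 for APRR5 with AT1G03980.

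In the line-by-time interaction no member passed in limma, where 0.511% of all genes were called, nor in any of the other fits, edgeR and DESeq2 among them. At an unadjusted p under 0.05 there were 3 of the 10 members, APRR7, LUX and LNK1, against 11.6% of all genes (2400 of 20756). A difference between the lines in the 12 h change was not shown for any of the 10.

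Other clock genes give the setting of these changes. In wild type over time, 2 of 10 morning MYB factors fell and none rose, where 2.45% of all genes fell and 2.27% rose. These were RVE1, a factor linking the clock to auxin, from 423 ± 77 to 214 ± 32.8 normalized counts (SD, n = 4; -0.97, adjusted p = 0.00437), and RVE2, from 1763 ± 213 to 1207 ± 145 (-0.55, adjusted p = 0.0182). The inducible line had 3 of 10 falls, where 3.68% of all genes fell. These were RVE1 (-1.44, adjusted p = 6.08e-05), RVE2 (-0.50, adjusted p = 0.0234) and LHY (-0.48, adjusted p = 0.0404). LHY went there from 2631 ± 297 to 1878 ± 181. All 10 had negative differences, with a median of -0.37, while 10706 of all 20756 genes were positive, with a median of 0.01. In wild type 5 of 10 were positive, as were 10288 of all 20756 genes, and the median of the 10 was -0.01. In the interaction 0 of these 10 had an unadjusted p under 0.05 in limma, so the lines were not shown to differ in their change.

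Of 15 partners and relatives of the members, none was called in wild type by limma, edgeR or DESeq2, and 0 had an unadjusted p under 0.05. The inducible line had 1 rise and 1 fall, where 1.44% of all genes rose and 3.68% fell. BOA, the close relative of LUX, rose from 85.3 ± 12.1 to 145 ± 17.3 (0.76, adjusted p = 0.0186), and LNK3, of the LNK family, fell from 423 ± 22.6 to 260 ± 30.2 (-0.70, adjusted p = 0.00977). Of 10 other clock regulators limma and edgeR called 0 in either line and DESeq2 1 in each, with 3 at an unadjusted p under 0.05 in wild type and 1 in the inducible line. Of 13 tested clock outputs limma called 0 in wild type, edgeR 1 and DESeq2 1, with 3 at an unadjusted p under 0.05, and 2 fell in the inducible line. These were the flowering repressor CDF2 (-0.77, adjusted p = 0.0288) and the growth factor PIF5 (-0.75, adjusted p = 0.000913). Of all genes 20.1% had such a p in wild type and 15.7% in the inducible line. With the replicate block, 4 of the 13 outputs fell in wild type, where 7.07% of all genes did, and 5 fell and 1 rose in the inducible line, where 5.82% of all genes fell. The block also gave 1 fall among the other regulators in wild type, and for the inducible line 1 rise there and 2 rises among the partners. Between the lines at 12 h, PIF4, which the evening complex is known to repress, was lower in the inducible line (-0.71, adjusted p = 0.0424). It was the 1 call of limma among the 48 tested genes of the 4 lists, where 2.2% of all genes were lower, with 1 call by edgeR and 2 by DESeq2. At 0 h none of the 48 tested genes of these lists passed in limma, with 8 at an unadjusted p under 0.05 (18.8% of all genes), 1 called by edgeR and 3 by DESeq2. In the interaction none passed in limma or edgeR, with 6 at an unadjusted p under 0.05 (11.6% of all genes) and 2 called by DESeq2. Under the block the inducible line was lower at 12 h in 1 morning MYB factor, 2 partners and 3 outputs, against 3.9% of all genes, and at 0 h in 1 partner, 2 other regulators and 1 output, against the 5.46% given above. In the interaction 1 other regulator was higher under the block, against 0.689% of all genes.

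**Figure D5:**
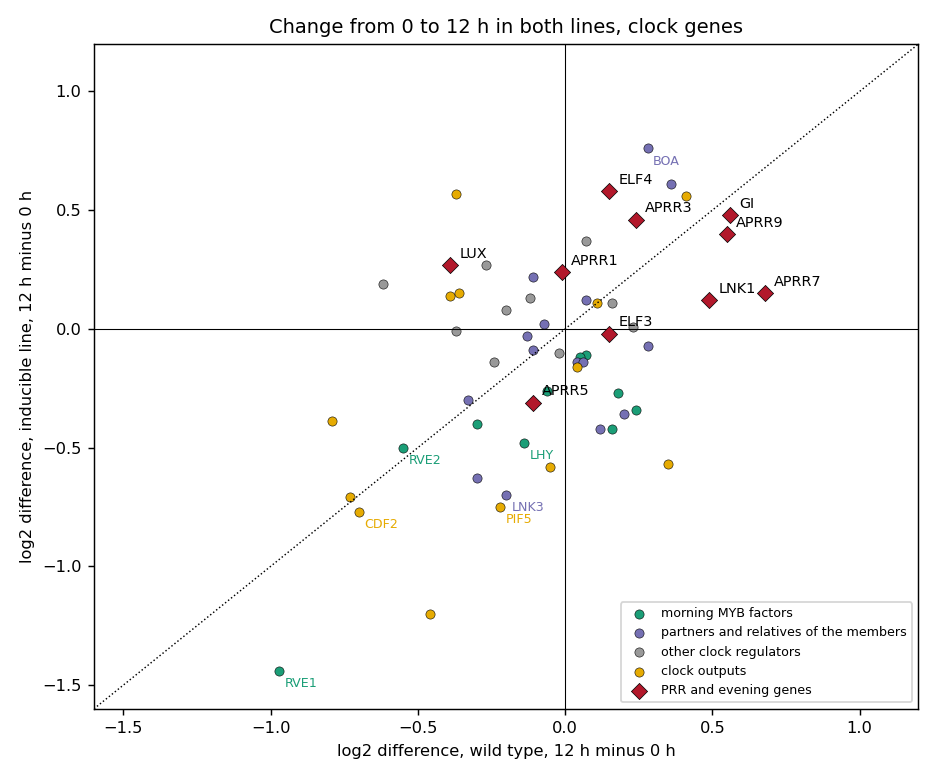
Log2 difference from 0 to 12 h in wild type (horizontal) against that in the inducible line (vertical) for the 10 members and 48 other clock genes, with a dotted line where both are equal. GI lies near the line at 0.56 and 0.48, APRR7 and LNK1 lie right of it, and RVE1 lies lowest at -0.97 and -1.44.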

How the data were processed

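The authors deposited one table of normalized read counts for all 16 libraries, a signal made by dividing the reads of each gene by a size factor of the library. The values themselves show it: 100% of them were whole reads, to within 0.001 read, once multiplied by one constant per library. TopHat, SAMtools, HTSeq, DESeq2 and the TAIR10 build appear in the submitters' processing notes without versions. The annotation release, strand setting and treatment of multiply aligned reads were not given in the sources used here. Every column matched 1 library by name.

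Genes had to reach 10 normalized counts in 4 or more libraries, and the 20756 that did were tested with limma 3.58.1 in R 4.3.3 on log2(value + 1), with trended, robust moderation, 1 fit of the 4 group means and Benjamini-Hochberg adjustment over all of them at 0.05. The plan had named edgeR's quasi-likelihood test for raw counts. It was run on the recovered reads (version 4.0.16) as an alternative, as was DESeq2 1.42.0, beside other filters, pseudocounts and scalings, a lane term, single lanes, the compared groups alone and leaving out each library. Folds on this scale understate changes of low genes, and intervals are 95% intervals of the fit. The labels tie replicate numbers to lanes, and same-numbered libraries deviated together (correlations of 0.52 to 0.72 over genes). These correlations cannot tell a shared number from a shared lane. The fit with a replicate block is printed where it changes a call. Exact permutation tests over libraries were 2-sided.

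All members are described, and of the other clock genes those past the threshold are named, up to 4 per list and comparison. The members and lists were chosen with earlier results of these data known. RefSeq TAIR10.1 gave positions and sequence, and 32835 of the 33602 genes matched it by locus. The limma fit was tested on simulated counts for the comparison of wild type over time.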

Additional observations from a re-analysis of the deposited data

Results flagged for a closer look

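In 3 of the 40 combinations of member and group, 1 library stood far from the other 3, measured as its gap to the nearest library divided by the range of the group. Chance gives this in about 1 of 20 groups. APRR1 had its lowest wild-type 0 h value in replicate 3 (1013 normalized counts, ratio 0.843). APRR5 had its lowest value of the inducible line at 0 h in replicate 4 (258, ratio 0.832) and its highest of wild type at 0 h in replicate 3 (337, ratio 0.837). None of the calls of the report rests on these genes.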

How the results depend on the processing

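The 3 members called in wild type over time were 1 in lane 1 alone and 0 in lane 2 alone, and 3 to 4 when 1 library was left out. In the inducible line over time the 1 member called became 3 with the replicate block, 3 when lane was a term, 0 in lane 1 alone and 2 in lane 2 alone. Between the lines at 12 h the 1 member called became 0 in each lane alone, and 0 to 1 when 1 library was left out. At 0 h the count of 0 became 1 in edgeR, 2 in DESeq2, 2 with the replicate block, 2 when lane was a term, 2 in lane 2 alone and 0 to 1 when 1 library was left out. In those fits LUX was the gene called, once wild-type 0 h replicate 1 (adjusted p = 0.00566) or 12 h replicate 3 (adjusted p = 0.0452) had been taken out. The interaction stayed at 0 members in all fits. The replicate block changed no member's call beyond those printed in the report, and the cause of these shifts was not tested. No called difference changed sign, which was fixed for fits of fewer libraries, because the libraries of called members did not overlap. A fit of one lane holds 2 libraries per group.

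Over all genes, wild type over time had 980 calls, against 2751 with the block, 3014 with a lane term, 187 in lane 1 alone, 315 in the compared groups alone, 1788 in DESeq2 and between 476 (without wild-type 0 h replicate 4) and 1889 (without wild-type 0 h replicate 1) when 1 library was left out. The inducible line over time had 1063, against 1843 with the block, 1921 with a lane term and 367 in lane 1 alone. At 12 h there were 706, against 1332 with the block, 1414 with a lane term, 175 and 437 in the single lanes, 1120 in DESeq2 and 428 (without wild-type 12 h replicate 2) to 800 when 1 library was left out. At 0 h there were 414, against 2351 with the block, 2641 with a lane term, 1 and 1846 in the single lanes, 138 in the compared groups alone, 1360 in DESeq2 and 120 (without inducible-line 0 h replicate 4) to 1803 (without wild-type 0 h replicate 1) when 1 library was left out. The interaction had 106, against 518 with the block, 586 with a lane term, 3 in lane 1 alone, 378 in DESeq2 and 53 (without inducible-line 12 h replicate 3) to 454 (without wild-type 0 h replicate 1) when 1 library was left out. APRR9, with 22 to 95 reads per library, is the member whose precision counting limits most.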
